A study of Mus musculus with 16 samples.

Results

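Pdk1, Adm and P4ha2 are 3 genes of the response of cells to low oxygen, described here in WT and M833 cells, the 2 cell types of a study titled for Met mutations in MEFs (mouse embryonic fibroblasts). They were found as the probes whose platform annotation gave one of these symbols alone, which were 5 of 15247 probes: 3 for Adm, 1 for Pdk1 and 1 for P4ha2. They make up 3 of 7114 named genes. The genes were selected from measured values, because they were seen to differ between M833 and WT on these arrays, so that difference is described here without a test. Total RNA of each cell type was measured on 8 dual-colour arrays against a common reference RNA, 4 with the sample in Cy5 and 4 with it in Cy3. The labels give no strain, allele, treatment, passage or age for either cell type, nor what M833 stands for or what the reference held. Nothing in the labels says that arrays came from separate cultures, so errors and p-values measure only the spread between arrays, which may be technical. Each value is a log2 ratio read as sample over reference, a direction that the titles make likely and no label states. The table had 0 missing values. Correlations between arrays over all probes were between 0.591 and 0.973, and at least 0.818 once WT replicate 2 was set aside. That array held all 49 values beyond 8 on the log2 scale, none of them in a member, and without it the difference of M833 from WT was -0.36 for Pdk1, -0.43 for Adm and -0.30 for P4ha2. Met, the gene of the title, had no probe under that symbol.

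Cells short of oxygen stabilise the hypoxia-inducible transcription factors (HIF), whose alpha subunits are otherwise marked for breakdown by the oxygen-dependent Egln prolyl hydroxylases. HIF binds a short DNA core, spelled ACGTG or GCGTG, near genes of glycolysis, blood vessel growth, matrix modification and cell survival. Pdk1 encodes a kinase that shuts down pyruvate dehydrogenase and so keeps pyruvate out of the mitochondrial citrate cycle. Adm encodes the precursor of adrenomedullin, a secreted peptide that widens vessels and acts through the receptor Calcrl paired with a Ramp protein. P4ha2 encodes a catalytic alpha subunit of the collagen prolyl hydroxylase, which works with P4hb in the endoplasmic reticulum and lets collagen form a stable triple helix.

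The sequence before each start site is shown because these genes are grouped by their response to HIF and all were lower in M833. The 250 bases before the start are given 5′ to 3′ on the plus strand, from RefSeq on GRCm38.p6, for chr2:71872974-71873223 (Pdk1), chr7:110627407-110627656 (Adm) and chr11:54100674-54100923 (P4ha2). Capitals mark every match to ACGTG or GCGTG on either strand, so that CACGT and CACGC are matches on the minus strand.
Pdk1: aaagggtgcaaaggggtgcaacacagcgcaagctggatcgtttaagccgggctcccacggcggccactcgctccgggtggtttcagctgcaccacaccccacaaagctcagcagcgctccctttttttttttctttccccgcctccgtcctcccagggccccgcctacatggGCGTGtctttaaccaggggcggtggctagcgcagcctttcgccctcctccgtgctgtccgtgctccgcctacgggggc
Adm: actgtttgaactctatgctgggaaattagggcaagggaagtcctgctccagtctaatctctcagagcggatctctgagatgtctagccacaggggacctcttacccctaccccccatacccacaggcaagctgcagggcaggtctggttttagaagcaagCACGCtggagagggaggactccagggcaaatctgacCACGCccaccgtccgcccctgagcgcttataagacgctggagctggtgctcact
P4ha2: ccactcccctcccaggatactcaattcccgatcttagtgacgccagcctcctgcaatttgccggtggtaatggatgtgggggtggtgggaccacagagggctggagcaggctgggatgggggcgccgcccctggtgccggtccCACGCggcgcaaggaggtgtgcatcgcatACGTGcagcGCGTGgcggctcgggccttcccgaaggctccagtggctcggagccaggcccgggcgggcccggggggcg
The Pdk1 window held 1 match, GCGTG on the plus strand from 78 to 74 bases before the start. A second Pdk1 start site in the table, with the window chr2:71874654-71874903, held 0. The Adm window held 2, both GCGTG on the minus strand, at 90 to 86 and 54 to 50 bases before the start. The P4ha2 window held 3, with GCGTG on the minus strand at 107 to 103, ACGTG on the plus strand at 78 to 74 and GCGTG on the plus strand at 69 to 65 bases before the start. Of 32851 windows of this length in the table, 38.6% held at least 1 match, 16.7% held 2 or more and 2.58% held 4 or more. The share with 3 or more, as in P4ha2, was not counted and lies between 2.58% and 16.7%. ACGTG in either strand was held by 16.6%. These shares are not matched for base content, and the printed windows had 64.0% (Pdk1), 56.8% (Adm) and 70.0% (P4ha2) G or C. These matches describe the letters only. The genes themselves lie at chr2:71873215-71903858 (Pdk1), chr7:110627657-110629820 (Adm) and chr11:54100924-54131668 (P4ha2). The Pdk1 window thus runs past the first base of the gene, and its positions are counted from a start site inside the gene. For Adm and P4ha2 the window ends where the gene begins. The annotation used here does not place a probe in an exon or UTR.

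All 3 genes were lower in M833 than in WT, by 18.8% to 28.3% on the linear scale. Adm differed by a log2 value of -0.48 ± 0.10 (SE, n = 8 per cell type), Pdk1 by -0.36 ± 0.05 and P4ha2 by -0.30 ± 0.06, where the median over all features was -0.03. Of 7114 named genes, 193 had a lower difference than Adm, 370 a lower one than Pdk1 and 562 a lower one than P4ha2. Over all 12761 features limma called 15.9% lower in M833 (Benjamini-Hochberg adjusted p under 0.05) and 25.9% in either direction. Since the members were selected on this contrast, no call is given for them.

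Pdk1 had the narrowest spread of the 3 in M833, though in WT P4ha2 varied less. Its log2 ratios ran from -1.81 to -1.43 on the WT arrays, with a median of -1.54, and from -2.03 to -1.82 on the M833 arrays, with a median of -1.98. The cell types did not overlap, since the highest M833 array, at -1.82, was just under the lowest WT array, at -1.81; the same order of all 16 arrays by cell type was found for 2.77% of features. The means were -1.58 ± 0.12 in WT and -1.94 ± 0.05 in M833 (SD after adjustment for dye, n = 8). The difference was nearly the same in both dye orientations, at -0.36 with the sample in Cy5 and -0.37 with it in Cy3.

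Adm varied most among the WT arrays. Its log2 ratios ran from 0.26 to 1.10 in WT, with a median of 0.49, and from -0.02 to 0.31 in M833, with a median of 0.17. The means were 0.61 ± 0.26 in WT and 0.13 ± 0.11 in M833 (SD after adjustment for dye, n = 8). Taken over both dyes the cell types overlapped, but within each dye orientation all 4 M833 arrays lay below all 4 WT arrays. The same held for Pdk1 and for 6.49% of features.

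The spread of Adm in WT followed the arrays rather than the dye alone. WT arrays 1 and 2, with the sample in Cy5, gave Adm ratios of 1.10 and 1.09, and WT arrays 5 and 6, with it in Cy3, gave 0.46 and 0.64. WT arrays 3 and 4 in Cy5 gave 0.50 and 0.48, and WT arrays 7 and 8 in Cy3 gave 0.26 and 0.38. The first set of 4 arrays therefore lay above the second at the same dye, with means of 0.82 and 0.40, and both sets lay above the M833 sets, at 0.07 (arrays 1, 2, 5 and 6) and 0.19 (arrays 3, 4, 7 and 8). The sets are not given by the labels and rest on arrays that deviated together in these same data. They are therefore no known part of the design, and no label says what arrays of a set share. The errors given here count each array as independent. The difference of Adm was -0.27 without WT arrays 1, 2, 5 and 6 and -0.69 without WT arrays 3, 4, 7 and 8. Array weights, estimated by limma from these data, were lowest for WT arrays 1, 2, 5 and 6, at 0.29, 0.27, 0.56 and 0.58. With these weights the difference of Adm was -0.39. Pdk1 showed the same order of the WT sets at a smaller size, with set means of -1.49 and -1.67. P4ha2 did not, at 0.54 and 0.52.

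P4ha2 had the smallest difference of the 3. Its log2 ratios ran from 0.35 to 0.74 in WT, with a median of 0.54, and from 0.06 to 0.43 in M833, with a median of 0.25. The means were 0.53 ± 0.09 in WT and 0.23 ± 0.15 in M833 (SD after adjustment for dye, n = 8). With the sample in Cy5 all M833 arrays lay below all WT arrays, and with it in Cy3 the groups overlapped, M833 reaching 0.39 where WT started at 0.35. The difference was -0.40 in Cy5 and -0.20 in Cy3.

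**Figure D1:**
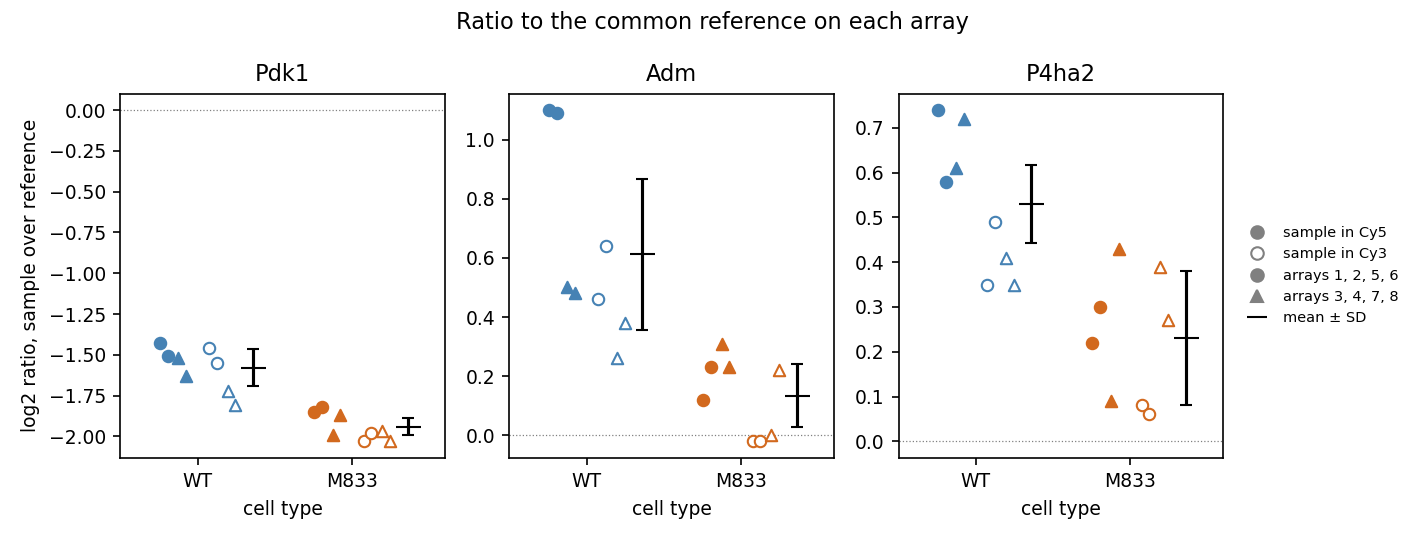
Log2 ratio to the reference on each of the 16 arrays for Pdk1, Adm and P4ha2, with cell type on the x axis, filled points for samples in Cy5, open points for Cy3, and circles and triangles for the 2 sets of arrays; bars are the mean ± SD after adjustment for dye. Pdk1 lies below the reference on every array, the M833 points lie low in each panel, and the WT values of Adm spread from 0.26 to 1.10.

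The 3 Adm probes did not show the difference alike. Probe 200628 ran from 0.62 to 1.20 in WT and from 0.07 to 0.43 in M833, with no overlap, and differed by a log2 value of -0.65 ± 0.09 (SE, n = 8 per cell type). Probe 200629 ran from 0.47 to 1.16 and from -0.08 to 0.30, again with no overlap, and differed by -0.58 ± 0.10. All M833 arrays lay below all WT arrays in 2.77% of features, and Adm was selected on this difference, so nothing is read from the separation. Probe 200091 ran from -0.32 to 0.98 in WT and from -0.21 to 0.54 in M833, so that its groups overlapped widely, and its difference was -0.21 ± 0.13. In Cy5 that probe differed by -0.43 between the cell types and in Cy3 by 0.02. Its own offset between the dyes was 0.51 ± 0.13, against 0.13 ± 0.09 for 200628 and 0.17 ± 0.10 for 200629. The Adm value given for the gene is the mean of the 3 probes and so is smaller in size than that of 200628 or 200629.

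**Figure D2:**
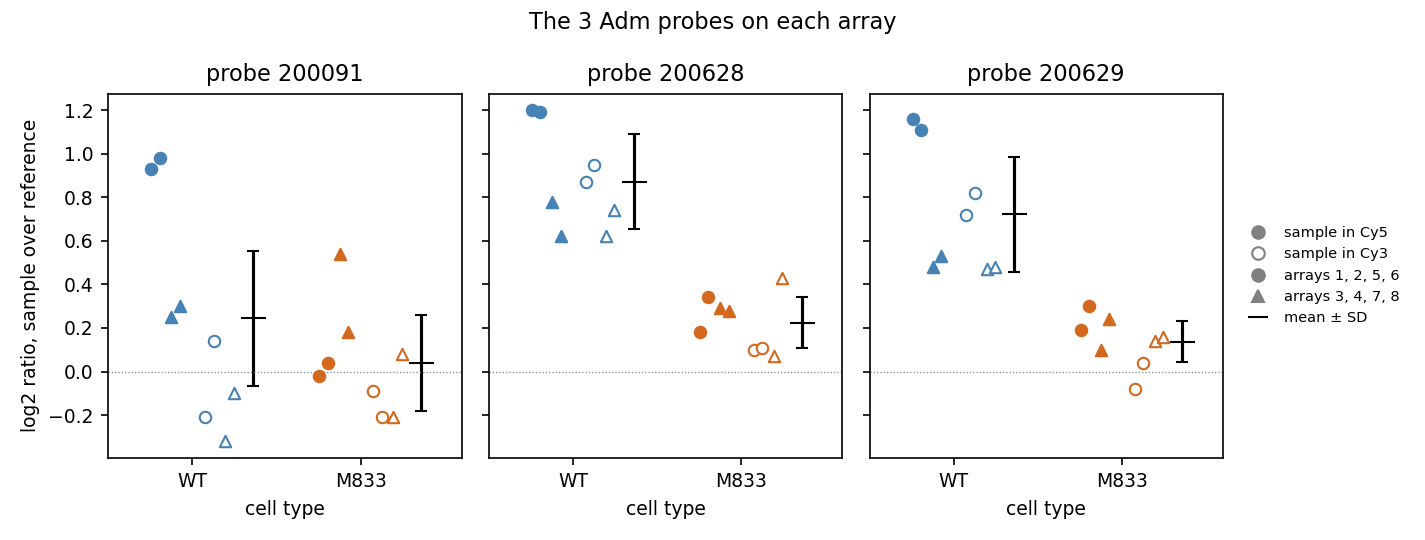
Log2 ratio to the reference of each Adm probe on each array, drawn with the same symbols and bars as the plot of the 3 genes and a shared y axis. Probes 200628 and 200629 separate WT from M833, and probe 200091 does not, with its Cy3 arrays near or below 0 in both cell types. Such separation was found for 2.77% of features, and Adm was selected on this difference.

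Against the reference the genes fell into 2 kinds, Pdk1 far below it and Adm and P4ha2 above it. This contrast did not choose the members, but its WT and M833 means are the 2 terms of the difference that did. A ratio higher in WT than in M833 is therefore no separate result. Pdk1 was 2.99-fold below the reference in WT (adjusted p = 5.5e-16, limma) and 3.84-fold below it in M833 (adjusted p = 4.0e-17). Of named genes 3.39% had a lower ratio in WT and 1.84% in M833. If the ratio ran the other way, Pdk1 would lie above the reference by the same folds, those shares would have a higher ratio, and Adm and P4ha2 would lie below it; every sign of M833 minus WT would turn as well. Adm stood 1.53-fold above the reference in WT (adjusted p = 4.5e-07, limma). In M833 it was 1.10-fold above and missed the threshold (adjusted p = 0.088), with a 95% confidence interval of the log2 ratio from -0.01 to 0.28; with array weights it passed, at 0.11 (adjusted p = 0.019). P4ha2 was 1.45-fold above the reference in WT (adjusted p = 1.2e-08) and 1.17-fold above it in M833 (adjusted p = 0.00017). Calls of this kind were common. Of all features 43.5% were above the reference and 35.8% below it in WT (79.2% in all), and 36.3% were above and 36.1% below it in M833 (72.4% in all). Among the Adm probes in M833, only 200628 stood above the reference by the test, at 0.22 (adjusted p = 0.0034, limma); 200629 was at 0.14 (adjusted p = 0.085) and 200091 at 0.04 (adjusted p = 0.72).

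The dye of the sample also moved the members. Ratios were higher with the sample in Cy5 than in Cy3 by 0.27 ± 0.10 for Adm (SE; adjusted p = 0.034, limma) and by 0.16 ± 0.06 for P4ha2 (adjusted p = 0.049). For Pdk1 the offset was 0.12 ± 0.05 and just missed the threshold (adjusted p = 0.053). Such an offset was called in 41.3% of features, and 22.7% were higher in Cy5. It cancels in M833 minus WT, since each cell type had 4 arrays of each orientation. Whether the difference between the cell types itself depended on dye was tested by the interaction, which limma called in 0% of features, with 361 of 12761 (2.83%) at an unadjusted p under 0.05. The interaction estimate was -0.21 for P4ha2, with a 95% confidence interval from -0.45 to 0.04. It was -0.19 for Adm (interval from -0.60 to 0.22) and 0.01 for Pdk1 (interval from -0.20 to 0.21).

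The members' difference kept its sign in each alternative tried, and its size depended on some. When every array was given the same spread of log ratios, Pdk1 stood at -0.69, Adm at -0.40 and P4ha2 at -0.22. Scaling multiplies ratios, and Pdk1 is the member farthest from 0. Without single arrays the difference ran from -0.39 to -0.34 for Pdk1, from -0.52 to -0.43 for Adm and from -0.34 to -0.27 for P4ha2.

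**Figure D3:**
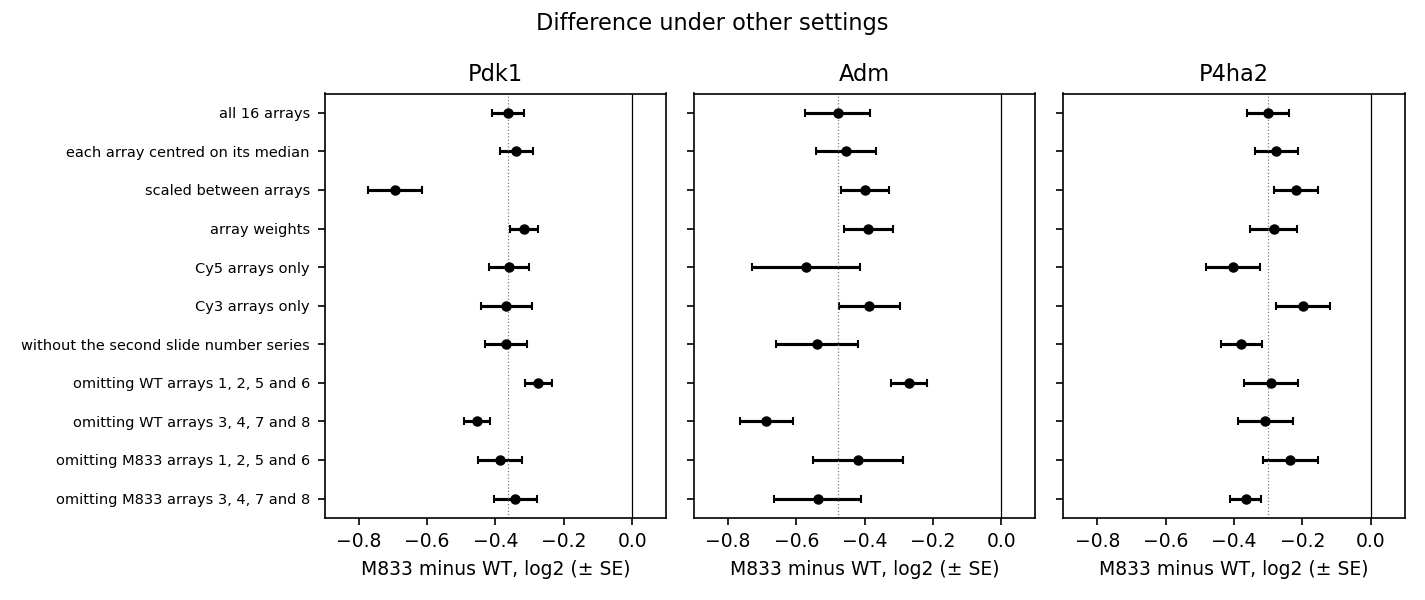
M833 minus WT on the log2 scale (point ± SE) for the 3 genes under the settings named on the left, with a dotted line at the value from all 16 arrays. Every point lies below 0; the Pdk1 value with scaled arrays, -0.69, and the Adm values without either set of 4 WT arrays, -0.27 and -0.69, lie farthest from that line.

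In the main fit, other genes that low oxygen is known to induce were called at about the shares found over all features. Of 25 measured genes in 3 lists of hypoxia-induced genes, 4 fell in M833, 2 rose and 19 were not called; their median difference was 0.02 (log2). Over all features 15.9% fell and 10% rose, so these counts sit near the background. With equal spread of the arrays 8 of the 25 were lower and 3 higher. Of all 12761 features that setting called 2138 lower and 1269 higher, so the lower share was larger in these lists. That excess was not tested. With each array centred on its median 3 of the 25 were lower and 3 higher. Over all features 38.7% of calls were higher in M833 in the main fit, which became 50.3% with that centring. The lists were compiled with earlier results of these data known and leave out the 3 members.

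Of 14 measured genes of glycolysis and lactate export, 1 fell and 13 did not pass; the list held 4 lower and 0 higher with equal spread of the arrays, and 0 lower and 1 higher with arrays centred on their medians. Pgk1, the phosphoglycerate kinase gene, fell by 0.08 ± 0.03 (SE, n = 8 per cell type; adjusted p = 0.026, limma). That call was lost with sets of 4 arrays as a random block (adjusted p = 0.23), with arrays centred on their medians, at -0.06 (adjusted p = 0.17), and without M833 replicate 4 or 6. The smallest differences were in Gapdh (0.04) and Tpi1 (-0.05). Further genes of this list, taken after their values were seen, are common readouts of HIF. The glucose transporter genes Slc2a3 and Slc2a1 stood at 0.47 ± 0.17 (adjusted p = 0.053, limma) and 0.22 ± 0.08 (adjusted p = 0.057). Hk1 stood at -0.14 ± 0.05 (adjusted p = 0.060) and the lactate dehydrogenase gene Ldha at -0.09 ± 0.04 (adjusted p = 0.096). None of these passed the test, and since they were picked by eye nothing is read from their signs. Of all 14 genes of the list 7 had a difference below 0.

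Of 9 measured survival and stress genes, 3 fell, 2 rose and 4 did not pass. The heme oxygenase gene Hmox1 fell by 0.55 ± 0.16 (adjusted p = 0.022, limma), Ero1a, which encodes an oxidase of protein folding, by 0.39 ± 0.11 (adjusted p = 0.013), and the mitophagy receptor gene Bnip3l by 0.21 ± 0.04 (adjusted p = 0.00054). Without WT arrays 3, 4, 7 and 8 Hmox1 was at -0.12 (adjusted p = 0.22) and Ero1a at -0.12 (adjusted p = 0.084), neither of them called, and with sets of 4 arrays as a random block Hmox1 missed the threshold (adjusted p = 0.060). The transferrin receptor gene Tfrc rose by 0.40 ± 0.09 (adjusted p = 0.0037), with probes from -0.21 to 0.75. Anxa2, encoding annexin A2, rose by 0.13 ± 0.05 (adjusted p = 0.050), a call that leaving out 1 array ended for 12 of the 16 arrays, all but WT replicates 5 and 6 and M833 replicates 5 and 8, as did the random block (adjusted p = 0.33). Bnip3, the close relative of Bnip3l, stood at 0.10 ± 0.11, and Car12, a membrane carbonic anhydrase gene, at -0.05 ± 0.04, neither past the test. Of the secreted and vascular list Igfbp3 (-0.50 ± 0.26) and the chemokine gene Cxcl12 (0.02 ± 0.06) alone were measured, and limma called 0 of these 2, with 0 at an unadjusted p under 0.05.

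Among 7 measured genes of the HIF pathway itself, 2 rose, none fell and 5 did not pass, while with equal spread of the arrays 1 was called higher and 2 lower. Over all features 10% rose and 15.9% fell. Kdm3a, a histone demethylase gene that HIF induces, rose by 0.14 ± 0.04 (adjusted p = 0.012, limma). Cited2, whose product competes with HIF for its coactivator, rose by 0.13 ± 0.04 (adjusted p = 0.040). The call of Cited2 was lost on leaving out any 1 of 12 arrays, all but WT replicates 2 and 3 and M833 replicates 2 and 8, and with equal spread it was at 0.061 (adjusted p = 0.43). With sets of 4 arrays as a random block neither was called, with adjusted p = 0.18 for Kdm3a and 0.31 for Cited2. The smallest differences were in Cited4 (-0.05) and in Arnt (-0.07), the beta subunit gene of HIF. Hif1a and Egln1, named after their values were seen, stood at 0.17 ± 0.21 (adjusted p = 0.59, limma) and 0.31 ± 0.11 (adjusted p = 0.060). The value of Egln1 was the largest difference of this list and was not called.

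The neighbours of Pdk1 in control of pyruvate dehydrogenase mostly did not pass the test, with 1 of 13 measured genes lower, 2 higher and 10 not called, and a median of 0.00. Over all features 15.9% fell and 10% rose. Pdk3, the measured paralog of Pdk1, stood at -0.11 ± 0.06 (adjusted p = 0.18, limma). Pdha1 and Pdhb, which encode the subunits of the enzyme that Pdk1 acts on, stood at 0.01 ± 0.06 and 0.00 ± 0.03. The heart-type lactate dehydrogenase gene Ldhb fell by 0.25 ± 0.07 (adjusted p = 0.0092). Cs, the citrate synthase gene, rose by 0.15 ± 0.03 (adjusted p = 0.0027) and Dlat, the acetyltransferase subunit gene of the complex, by 0.14 ± 0.05 (adjusted p = 0.046). With sets of 4 arrays as a random block none of these 3 was called, with adjusted p = 0.12 for Ldhb, 0.071 for Cs and 0.16 for Dlat. With equal spread of the arrays Cs was at 0.03 (adjusted p = 0.65) and Dlat at 0.07 (adjusted p = 0.33), and the list then held 5 lower and 0 higher. Dlat also lost its call without any 1 of 12 arrays, all but WT replicates 3, 7 and 8 and M833 replicate 7.

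For the adrenomedullin system 3 of 12 listed genes were measured, and the receptor genes Calcrl, Ramp1, Ramp2 and Ramp3 were not among them. Ackr3, encoding a scavenger receptor that binds adrenomedullin and Cxcl12, fell by 0.59 ± 0.17 (SE, n = 8 per cell type; adjusted p = 0.021, limma). Ackr3 ran from 0.28 to 1.42 on the WT arrays and from 0.02 to 0.44 on the M833 arrays, so that the groups overlapped. Without WT arrays 1, 2, 5 and 6, the arrays on which Adm was also high, it was at -0.13 (adjusted p = 0.20). Mme, whose product neprilysin degrades peptides, stood at -0.09 ± 0.05 and Crcp, a component of related receptors, at -0.05 ± 0.04, neither past the test.

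Most measured genes that work with P4ha2 were lower in M833 too. Of 7 measured genes of collagen hydroxylation and folding other than P4ha2, 6 fell, none rose and 1 did not pass. Their median was -0.27, and Plod3 turned sign when the arrays were given equal spread. Over all features 15.9% fell. The list was compiled with earlier results of these data known, and its count was not tested against that share. P4ha1, encoding the other measured alpha subunit, fell by 0.37 ± 0.09 (adjusted p = 0.0068, limma). P4hb, encoding the beta subunit that both alpha subunits need, fell by 0.32 ± 0.04 (adjusted p = 3.4e-05), with both of its probes lower, at -0.35 and -0.28. P3h3 and Crtap, of the prolyl hydroxylation machinery that modifies another position of the proline ring, fell by 0.35 ± 0.08 (adjusted p = 0.0030) and 0.27 ± 0.04 (adjusted p = 0.00012). Serpinh1, the collagen chaperone gene, fell by 0.18 ± 0.05 (adjusted p = 0.012) and was at -0.06 (adjusted p = 0.50) with equal spread of the arrays; with the random block it was not called (adjusted p = 0.10). Plod3, a lysyl hydroxylase gene, fell by 0.14 ± 0.03 (adjusted p = 0.0013), a direction that turned to 0.07 (adjusted p = 0.34) when the spread of log ratios was made equal between arrays. P3h2 stood at 0.11 ± 0.05 (adjusted p = 0.094).

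The ranges of the subunit genes, taken over both dyes, differed from that of P4ha2. The SE of the P4hb difference was 0.12 without the dye term and 0.04 with it, so its range holds an offset between dyes. For P4ha2 these errors were 0.07 and 0.06. P4ha1 ran from -0.10 to 0.71 in WT, with a median of 0.31, and from -0.36 to 0.20 in M833, with a median of -0.13. P4hb ran from 0.06 to 0.71 in WT, with a median of 0.32, and from -0.23 to 0.33 in M833, with a median of 0.10. Both overlapped between the cell types over all arrays, as P4ha2 did. Within each dye orientation P4hb did not overlap, as was found for 6.49% of features. Of the 7 genes of the list 4 were called lower with equal spread of the arrays, 5 with sets of 4 arrays as a random block and 2 without M833 arrays 1, 2, 5 and 6. Without WT arrays 3, 4, 7 and 8 there were 4 lower and 1 higher, and P4ha1 was at -0.15 (adjusted p = 0.063).

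**Figure D4:**
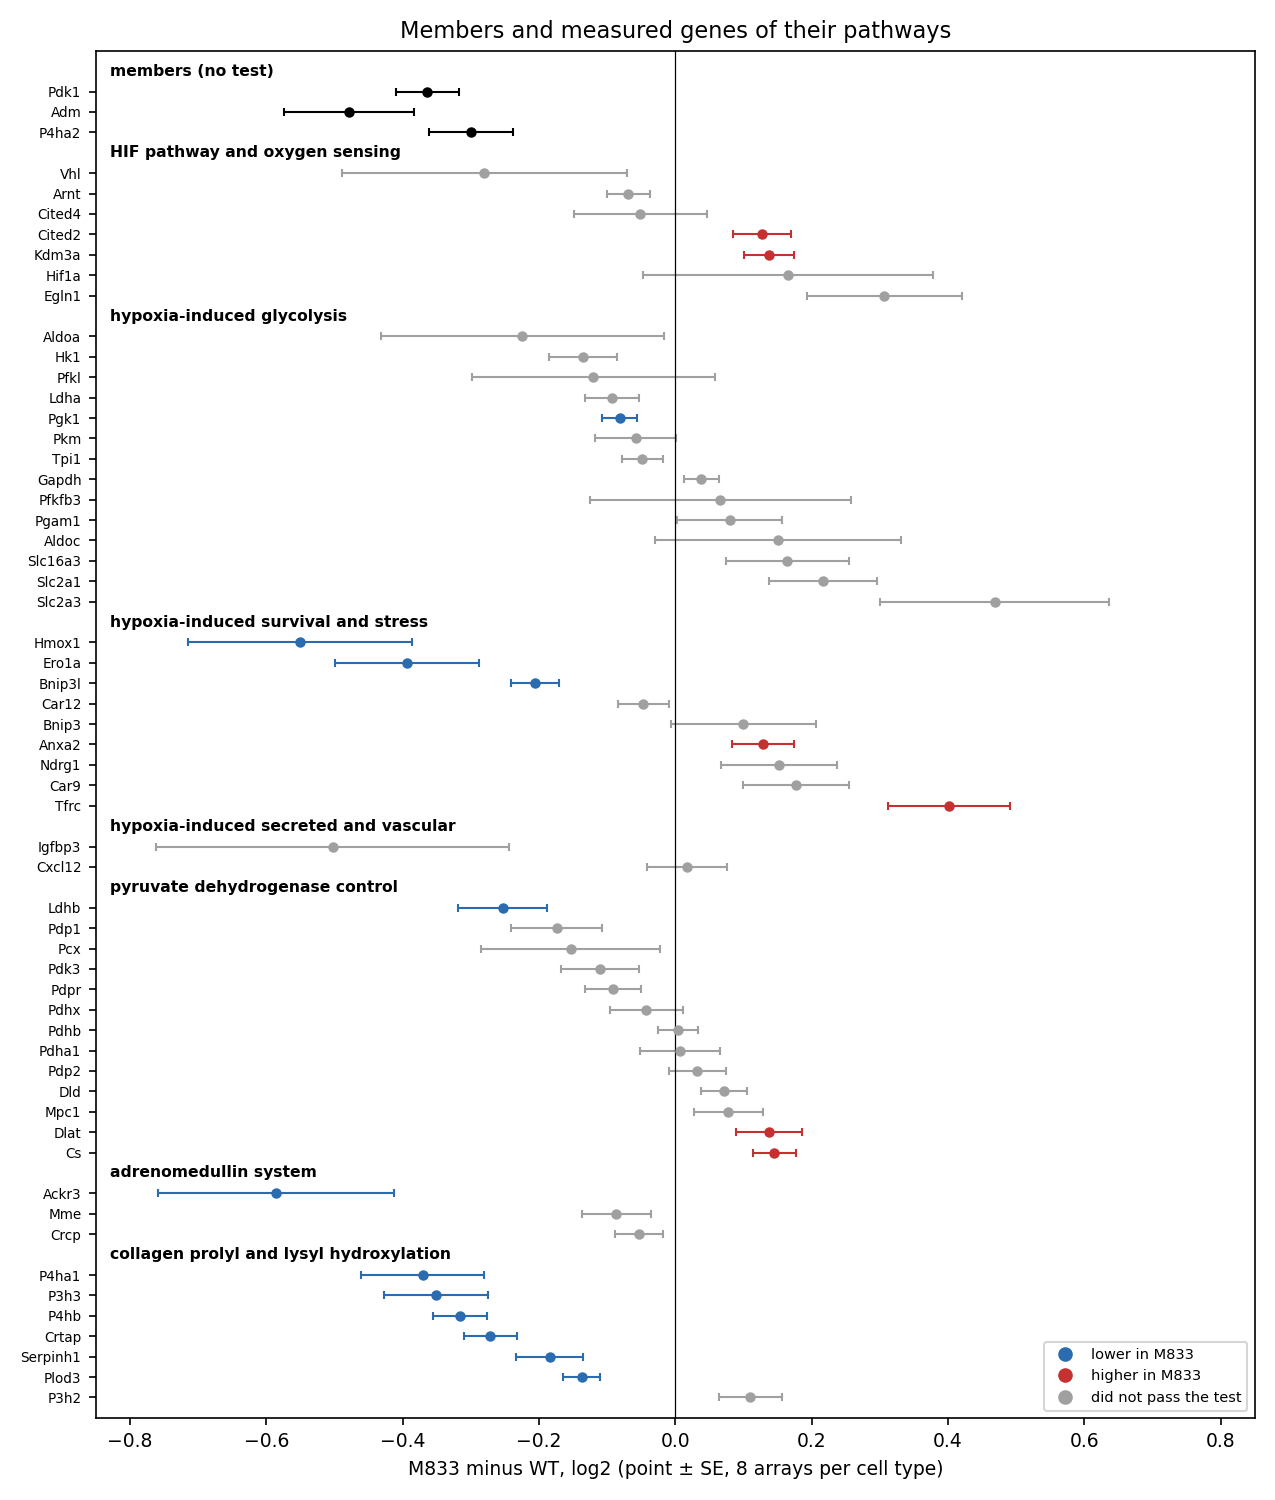
M833 minus WT on the log2 scale (point ± SE, 8 arrays per cell type) for the 3 members in black and for 55 measured genes in 7 lists, coloured by whether the gene passed the limma test. Most genes of collagen hydroxylation lie to the left with the members, 6 of 7 lower by the test (Plod3 turned sign with equal spread of the arrays). Over all features 15.9% were called lower. The glycolysis genes lie on both sides of 0 with 1 call.

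Each member had other named genes nearer to it than the other members were. Likeness was the root mean square difference of dye-adjusted log2 ratios over the 16 arrays, each gene centred on its own mean, among 7113 other named genes. The measure rewards a difference of the same size as well as the same order of arrays, and the members were selected on that difference. Among so many genes some nearer ones are likely for any gene, so nothing is read from the ranks. Nearest to Pdk1 were Ntm (0.053), a gene of a cell adhesion molecule, Plbd2 (0.058), Nxn (0.061), which encodes the redox protein nucleoredoxin, and Lpcat3 (0.068), a phospholipid acyltransferase gene. Nearest to Adm were Eid1 (0.098), the protease inhibitor gene Serpinb6a (0.11), Pogk (0.11) and A630039O03Rik (0.11). Nearest to P4ha2 were the coatomer gene Copg1 (0.097), Gpatch11 (0.097), Ssr4 (0.097), which encodes a subunit at the protein translocon, and the adaptor gene Skap2 (0.098). From Pdk1, P4ha2 ranked 388 at 0.13 and Adm 1611 at 0.18. From Adm, Pdk1 ranked 200 and P4ha2 563, at 0.22. From P4ha2, Pdk1 ranked 135 and Adm 3386.

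Markers of cell types moved in the same comparison. Of 14 macrophage and leukocyte markers 7 were measured and all 7 fell in M833, by a median of -0.86, from the complement gene C1qc (-0.55 ± 0.05; adjusted p = 2.5e-06, limma) to the lysozyme gene Lyz2 (-1.67 ± 0.14; adjusted p = 1.1e-06). Their mean ratio lay between -0.46 and -0.28 on WT arrays and between -1.60 and -1.29 on M833 arrays. Over all features 15.9% fell, and the marker lists too were compiled with earlier results of these data known. Of 9 fibroblast markers 7 were measured. Col1a2 (-0.87), Col3a1 (-0.38), Fn1 (-0.38), Col1a1 (-0.20) and Vim (-0.19) fell, and the receptor genes Pdgfra (-0.21) and Pdgfrb (-0.07) were not called. With equal spread of the arrays Fn1 was at -0.051 (adjusted p = 0.75) and Vim at -0.030 (adjusted p = 0.75), and with sets of 4 arrays as a random block Col1a1 (adjusted p = 0.064) and Vim (adjusted p = 0.15) were not called. The mean ratio of this list lay between 0.30 and 0.73 on WT arrays and between -0.07 and 0.42 on M833 arrays. In WT Fn1 (2.03) and Vim (1.04) were above the reference, Col1a1 (0.04) and Col1a2 (0.01) near it and Col3a1 (-0.91) below it. In M833 Fn1 (1.65) and Vim (0.85) were above it, and Col1a1 (-0.16), Col1a2 (-0.86) and Col3a1 (-1.29) were below it. What the reference held is not given, so these ratios do not test the label of fibroblasts. Of 8 endothelial markers 4 were measured, and limma called 0, with 0 at an unadjusted p under 0.05. Their differences ran from 0.10 to 0.35, with every mean under the reference. The part of these shifts in the values of Pdk1, Adm and P4ha2 was not tested. In RNA of a whole culture, fewer cells of a type and less RNA per cell cannot be told apart, and a ratio to a reference gives no absolute level by which a marker could be read as absent.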

How the data were processed

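Total RNA was isolated with Trizol, and dye was incorporated during reverse transcription, per the labels' protocols. The authors deposited normalised log ratios, taken here as log2 from their range. The submitters' processing notes name limma; its version, the background correction, the normalisation and any filter were not given in the sources used here. Dim spots could not be filtered, as channel intensities were not used here.

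Arrays were grouped by source name and numbered in series order. Probes with one symbol (9600 of 15247; 214 had several and 5433 none) were averaged per gene, which gave 12761 features. They were fitted in limma 3.58.1 (R 4.3.3; lmFit and eBayes) on 16 arrays with terms for cell type and for dye; adjusted p-values are Benjamini-Hochberg over all features and called under 0.05. Simulated data with known changes, drawn with independent noise on each array, were used to check the model. Of 50 features changed by a log2 value of 0.25, 60% were recovered, and of 50 changed by 0.5, 92%. For 50 changed by 1 and 50 changed by 2 the shares were 98% and 100%. Among the unchanged features 15 were called. The simulation held no deviation shared by arrays of a set, so it does not check the errors against one. The members and lists were chosen with earlier results of these data known. Genes named were the members and their probes, listed paralogs and partners, up to 5 called genes per direction and 2 uncalled per list, markers, and the 4 most alike. Slc2a3, Slc2a1, Hk1, Ldha, Hif1a and Egln1 were added after their values were seen. Promoter windows came from RefSeq, GRCm38.p6. Alternatives, in the closing section, changed centring, scaling, the dye term, weights, moderation, the arrays kept and the treatment of sets of 4 arrays.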

Additional observations from a re-analysis of the deposited data

How the results depend on the processing

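Errors and p-values rest on arrays that the labels do not tie to separate cultures. No paired analysis was possible because the labels carry no replicate numbers. With the mean of each set of 4 arrays as 1 sample, limma called 0 of 12761 features (0 higher and 0 lower), with 1676 at an unadjusted p under 0.05, and 0 pathway genes in either direction. That design has 2 samples a cell type and uses sets that rest on these same data, so it says little about stability. Signal over background was not used here, so a dim probe cannot be told from a bright one. The difference of each member was below 0 in each alternative run. It moved by more than the spread between arrays for Pdk1 with log ratios scaled between arrays (-0.69) and for Adm without WT arrays 1, 2, 5 and 6 (-0.27), without WT arrays 3, 4, 7 and 8 (-0.69) and at probe 200091 by itself (-0.21). Leaving out 1 array at a time gave -0.39 to -0.34 for Pdk1, -0.52 to -0.43 for Adm and -0.34 to -0.27 for P4ha2. Adm in M833 against the reference passed the test with scaled ratios (0.13), array weights (0.11), without WT arrays 1, 2, 5 and 6 (0.13) or 3, 4, 7 and 8 (0.13) and at probe 200628 (0.22); the other tests against the reference kept their side of the threshold. Of the 18 pathway genes called with all arrays, Plod3 reversed, at 0.068 with scaled ratios, and the other 17 did not in the alternatives run; uncalled genes were not followed.

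Of all features 3301 were called, 1276 higher and 2025 lower. The counts (higher and lower in brackets) were 2000 (780, 1220) with no dye term, 835 (287, 548) on Cy5 arrays only, 1100 (406, 694) on Cy3 arrays only, 1465 (562, 903) with sets as a random block, 1685 (661, 1024) without M833 arrays 1, 2, 5 and 6 and 1858 (699, 1159) without M833 arrays 3, 4, 7 and 8. The counts rose to 3886 with array weights, 4328 (1758, 2570) without WT arrays 1, 2, 5 and 6 and 4629 (1848, 2781) without WT arrays 3, 4, 7 and 8. Without the 3 M833 arrays whose slide numbers form a second series 1348 were lower. Without 1 array the count ran from 2878 to 3295, with 1114 to 1265 higher and 1756 to 2049 lower. Of 55 pathway genes 12 were lower and 6 higher. The lower count was 20 with scaled ratios, 2 on Cy5 arrays, 3 on Cy3 arrays, 6 without the second slide series, 3 without M833 arrays 1, 2, 5 and 6 and 7 without M833 arrays 3, 4, 7 and 8. The higher count was 2 with no dye term, 1 on Cy5 arrays, 1 on Cy3 arrays, 3 without the second slide series, 1 with sets as a random block, 10 without WT arrays 3, 4, 7 and 8, 0 without M833 arrays 1, 2, 5 and 6 and 3 without M833 arrays 3, 4, 7 and 8. Without 1 array 11 to 15 were lower and 3 to 8 higher. The cause of these shifts was not tested.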
